A study of Mus musculus with 6 samples.

Results

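Cytosolic ribosomal protein genes were followed in the stromal vascular fraction (SVF), the cells left after mature adipocytes are removed by collagenase digestion, of gonadal white adipose tissue (gWAT). Members were the genes of the array annotation whose symbol begins with Rpl or Rps and a digit, together with Rplp0, Rplp1, Rplp2 and Rpsa, without the S6 kinase genes and pseudogene symbols. The rule took in 69 of 22180 genes tested. Of these, 58 were canonical ribosomal protein genes (35 of the large and 23 of the small subunit), 9 were paralogues and 2, Rps19bp1 and Rps23rg1, do not encode ribosomal proteins. A further 19 of 77 canonical names looked for had no row with a single symbol, among them Rps27a and Rpl13a, and were not analysed here.

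The mice were wild-type C57Bl/6, 8 weeks old per the labels. The CL group (n = 3 arrays) received CL316243, an agonist of the β3-adrenergic receptor, by a daily intraperitoneal injection of 1 mg/kg (volume 0.1 ml) on 3 days in a row, and the vehicle group (n = 3 arrays) received vehicle. The study used the agonist to ask how cells of white fat respond when beige fat, with its heat-producing adipocytes, is induced. For isolating this fraction from gWAT, the study's methods name female mice of a younger age than the labels give. Their general CL protocol is a longer course of daily injections. The duration and age given here therefore rest on the labels alone. The labels call the arrays biological replicates, without saying whether an array holds 1 mouse or a pool.

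Each ribosome is built of a small subunit, which decodes the messenger RNA, and a large subunit, which joins amino acids, and each subunit is a ribosomal RNA scaffold bound by many proteins. Cytosolic ribosomal proteins are encoded in the nucleus by genes that are active in nearly every cell. Their messenger RNAs begin with a C and a run of pyrimidines, the terminal oligopyrimidine or TOP tract, through which mTORC1 and LARP1 set their translation. An array measures the level of the messenger RNA and is blind to this translational step. Most of these genes have many processed pseudogene copies elsewhere in the genome, which can share probe sequence with them.

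The TOP tract can be seen in the bases around the annotated starts of members that the results below turn on, printed with the longest unbroken C or T run of at least 5 bases in capitals. Each window holds 15 bases before the start and 15 from it onward (RefSeq sequences, GRCm38.p6).
Rps27 (chr3:90213634-90213663, minus strand): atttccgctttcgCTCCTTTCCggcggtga
Rpl15 (chr14:18270972-18271001, minus strand): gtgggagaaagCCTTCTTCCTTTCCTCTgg
Rpl7a (chr2:26910792-26910821, plus strand): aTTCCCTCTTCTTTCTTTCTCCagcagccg
Rps6 (chr4:86857353-86857382, minus strand): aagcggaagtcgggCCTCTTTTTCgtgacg
Rpl38 (chr11:114668565-114668594, plus strand): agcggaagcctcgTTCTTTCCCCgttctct
Rps28 (chr17:33824548-33824577, minus strand): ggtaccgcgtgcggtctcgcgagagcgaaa
The first 3 genes had higher values in the CL arrays, Rps6 had nearly equal values in both groups, and Rpl38 and Rps28 had lower ones. Long tracts stood at genes of each kind, and the Rps28 window had no run of 5. Of the canonical members, 45 had a promoter entry. A C followed by at least 4 pyrimidines lay exactly at the annotated start in 10 of them (22.2%, against 2.49% of 27025 genes) and within 15 bases of it in 26 (57.8%, against 36.4%). The 26 had a median log2 fold change of 0.10 between CL and vehicle, and the other 19 a median of 0.11. In the 300 bases from 250 before the start, CGGAAG on either strand, the core of ETS factor sites, was found in 31 of the 45 (68.9%, against 17.2% of all genes). GGGCGG on either strand, the core of Sp factor sites, was found in 23 (51.1%, against 35.9%), and the 2 motifs can overlap by 3 bases. TATAAA on the sense strand was found in 3 (6.67%, against 8.88%).

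Values are RMA levels on the log2 scale, so a difference of 1 is a 2-fold change. The arrays of the CL group correlated with each other at 0.974 to 0.976, and those of the vehicle group at 0.959 to 0.964. The endothelial and macrophage lists averaged well above the background level of 3.59, which was set by smell and pheromone receptor genes. The endothelial list (5 genes) averaged 7.79 to 8.75 in CL arrays and 8.62 to 9.21 in vehicle arrays, with 5 negative fold changes (median -0.53, 2 lower at unadjusted p, 0 past the test). The macrophage list (5 genes) averaged 9.62 to 9.83 in CL arrays and 9.45 to 9.81 in vehicle arrays. Several other lists also lay apart between the groups, and others overlapped. The mast cell list (5 genes, all higher at unadjusted p, 2 past the test) averaged 6.44 to 7.62 in CL arrays and 3.94 to 5.19 in vehicle arrays. Of its genes 1 was below background. The proliferation list (4 genes, all with positive fold changes) averaged 6.25 to 7.12 in CL arrays and 5.22 to 6.10 in vehicle arrays. The pericyte and smooth muscle list (5 genes, 4 with positive fold changes, 2 past the test) averaged 7.91 to 8.57 in CL arrays and 7.43 to 7.49 in vehicle arrays, with a median log2 fold change of 1.05. Its 1 negative gene (-0.59) was lower at unadjusted p. The adipocyte list averaged 5.58 to 6.97 in CL arrays, highest in CL array 1, and 5.44 to 5.69 in vehicle arrays, with overlap. Of its 5 genes 3 had positive fold changes, all higher at unadjusted p, and 2 had negative ones (-0.51 to 1.44). In this list 0 passed the test, and 1 was below background. The adipose progenitor list (4 genes, 2 positive and 2 negative) averaged 9.96 to 10.28 in CL arrays and 9.90 to 9.99 in vehicle arrays. The B cell list (4 genes, all negative, 0 past the test) averaged 4.46 to 4.57 in CL arrays and 4.65 to 5.16 in vehicle arrays. The neutrophil list averaged 5.61 to 6.14 in CL arrays and 6.16 to 6.35 in vehicle arrays. Of its 5 genes 3 had positive and 2 negative fold changes, 2 were lower at unadjusted p, 0 passed the test and 1 was below background. Over all genes 9.4% were higher and 5.38% lower at unadjusted p. The part of these shifts in the ribosomal protein values was not tested, and in a cell mixture a different number of cells of a type cannot be told apart from a different amount of RNA per cell.

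No ribosomal protein gene passed the test at an adjusted p of 0.05 (limma, adjusted over all genes), against 72 of 22180 genes (0.325%) in either direction. The lowest adjusted p among the members was 0.106, for Rps27. At an unadjusted p under 0.05, 11 members were higher in CL arrays (15.9%, against 9.4% of all genes) and 0 were lower (against 5.38%). The methods' t-test, unadjusted, gave 11 higher and 3 lower (7.04% and 4.72% of all genes). With limma, 5 were higher and 4 lower without CL array 2, 6 were higher and 2 lower without vehicle array 3, and 7 were higher and 0 lower without CL array 1. All CL values lay above all vehicle values in 14 members (11.2% of all genes), and all lay below in 5 (8.72%). The log2 fold change was positive in 44 members and negative in 25 (50.4% of all genes were positive), with a median of 0.10 over the members and of 0.002 over all genes.

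The median deviation of the members from their own means was -0.01, 0.13 and 0.00 in the CL arrays, against 0.04, -0.06 and -0.08 in the vehicle arrays. The groups overlapped, because vehicle array 1 lay above CL arrays 1 and 3. Cyclic loess, which rescales the arrays to each other by level, brought the median to 0.03, and leaving out CL array 2, vehicle array 2 or vehicle array 3 brought it to 0.05. Bright genes as a whole also leaned towards CL. Among the 650 genes with a mean above 9, 17.8% were higher and 8.77% lower at unadjusted p, with a median of 0.08. Of the 34 canonical members above that level, 14.7% were higher and 0 lower, with a median of 0.10.

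**Figure D1:**
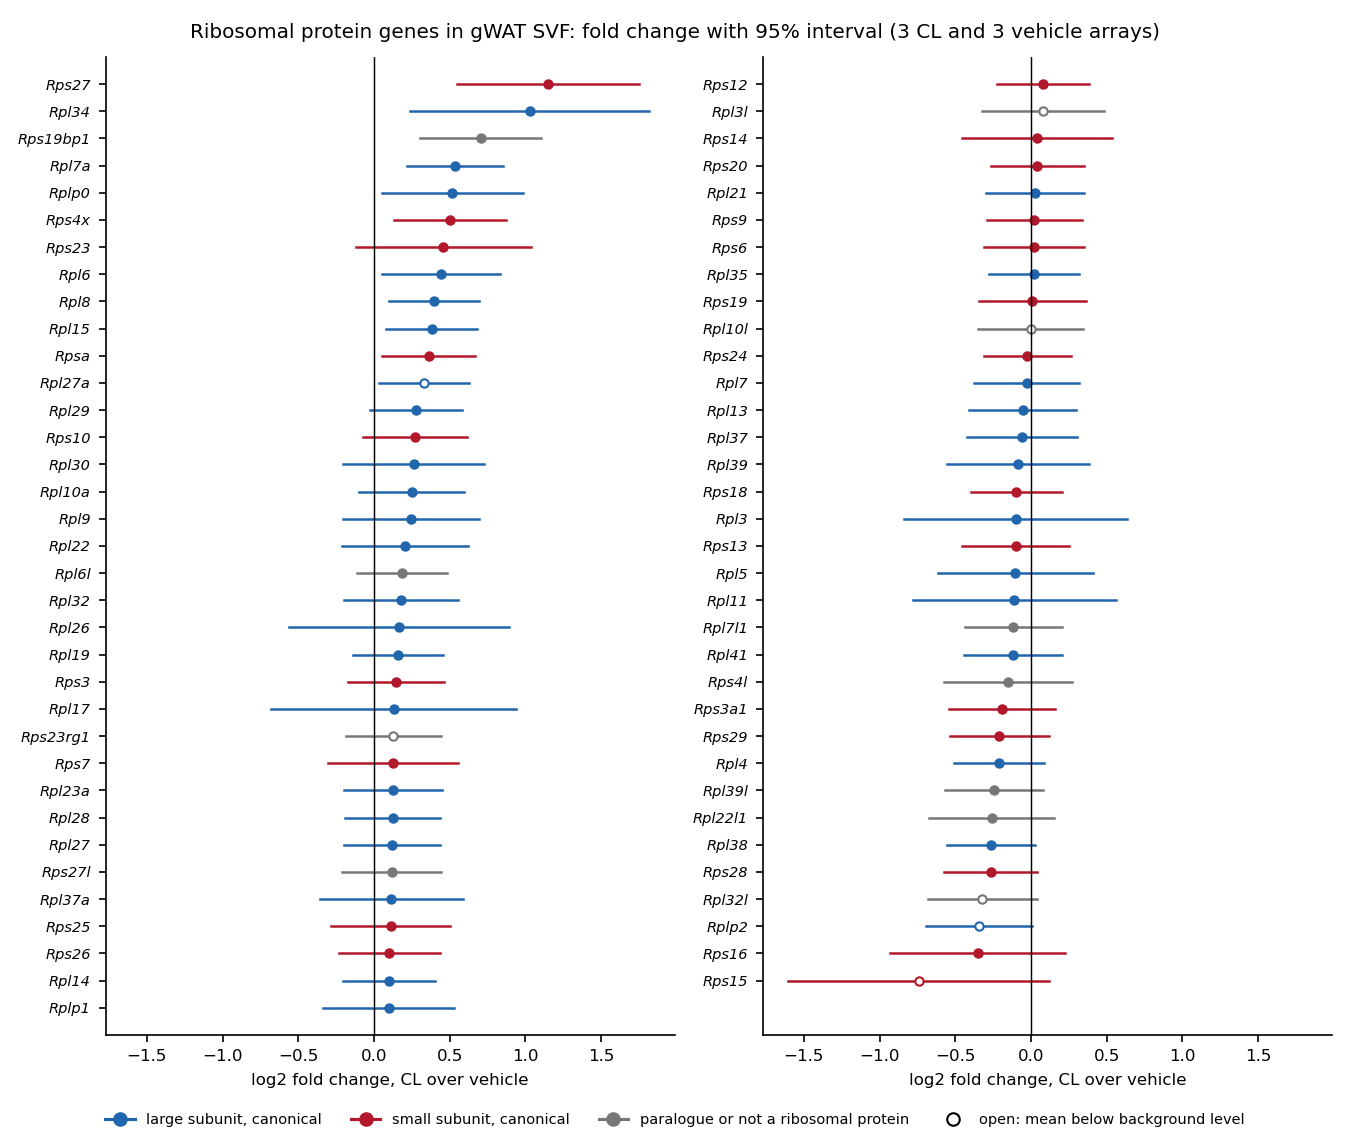
Log2 fold change (x axis, CL over vehicle) of each of the 69 members (y axis, ordered by fold change in a left and a right column), with bars for the 95% confidence interval of limma; blue is the large subunit, red the small subunit, grey the paralogues and the 2 genes that encode no ribosomal protein, and open circles have a mean below background. The intervals of 11 members lie above 0, those of 58 include 0, and the widest is that of Rps15, whose mean is below background.

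By subunit, 24 of the 35 large-subunit members had positive fold changes, with a median of 0.12. At unadjusted p, 7 of them were higher (20%, against 9.4% of all genes). Of the 23 small-subunit members, 15 had positive fold changes and 3 were higher (13%), with a median of 0.04. In each subunit 0 were lower, against 5.38% of all genes. The median deviation of the large-subunit members was -0.02, 0.14 and 0.06 in the CL arrays, against 0.04, -0.09 and -0.10 in the vehicle arrays. That of the small-subunit members was 0.02, 0.13 and -0.04 in the CL arrays, against 0.03, -0.00 and -0.08 in the vehicle arrays. Both subunits overlapped between the groups, and the difference between the subunits was not tested.

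The largest fold change was that of Rps27 (read from a row with a mean of 6.36), which encodes a zinc finger protein of the small subunit. It had 6.67, 7.39 and 6.75 in the CL arrays, against 6.16, 5.91 and 5.28 in the vehicle arrays. The groups did not overlap, and CL array 2 and vehicle array 3 lay farthest out. The log2 fold change was 1.15 (SE 0.27, 95% interval 0.55 to 1.75, 2.22-fold, adjusted p = 0.106). A much brighter row, annotated to Rps27 together with the retrogene Rps27rt and so not assigned to either, lay the other way, with a mean of 12.44 in the CL arrays and 12.72 in the vehicle arrays (-0.28). Next came Rpl34, of the large subunit, with 6.10, 6.07 and 5.97 in the CL arrays, against 5.95, 4.74 and 4.36 in the vehicle arrays. The CL arrays lay close together, and vehicle array 1 lay just below them. The log2 fold change was 1.03 (SE 0.35, adjusted p = 0.218), and without vehicle array 1 it was 1.49 and passed the test (adjusted p = 0.0488). Without vehicle array 2 it was 0.89 and without vehicle array 3 it was 0.70, both with an unadjusted p above 0.05 (limma, adjusted p = 0.389 and 0.427). A bright row shared by Rpl34 and a pseudogene symbol had means of 12.18 in the CL arrays and 12.21 in the vehicle arrays (-0.02).

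Rpl7a, a large-subunit protein, was read from a bright row that lay among rows of chromosome 9. It had 11.88, 12.08 and 11.89 in the CL arrays, against 11.52, 11.32 and 11.41 in the vehicle arrays. Every CL value was above every vehicle value by more than the range within the vehicle arrays. The log2 fold change was 0.54 (SE 0.14, 1.45-fold, adjusted p = 0.14). With a variance prior that follows the level of the genes it passed the test (adjusted p = 0.0415, or 0.0442 with robust estimation), while without CL array 2 it was 0.47 with an adjusted p of 0.392.

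Rps4x, a small-subunit protein encoded on the X chromosome, had 10.77, 10.80 and 10.43 in the CL arrays, against 10.19, 10.33 and 9.98 in the vehicle arrays (log2 fold change 0.50, SE 0.16). Rpsa, which also is known as the laminin receptor, had 10.14, 10.16 and 10.01 in the CL arrays, against 9.82, 9.78 and 9.64 in the vehicle arrays (0.36, SE 0.14). Rpl6, of the large subunit, had 4.82, 5.04 and 4.999 in the CL arrays, against 4.41, 4.82 and 4.29 in the vehicle arrays (0.44, SE 0.17). These 3 genes did not overlap between the groups, although for Rpl6 the lowest CL and the highest vehicle value were nearly equal, and their adjusted p-values were 0.208, 0.268 and 0.282.

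A pair of bright large-subunit rows, named here after their values were seen, had tight groups. Rpl8, which lies near the peptidyl transferase centre, had 10.87, 10.90 and 10.76 in the CL arrays, against 10.47, 10.44 and 10.43 in the vehicle arrays (0.40, SE 0.13, adjusted p = 0.209). Rpl15, whose tract is printed above, had 11.45, 11.43 and 11.32 in the CL arrays, against 11.09, 10.99 and 10.96 in the vehicle arrays (0.38, SE 0.13, adjusted p = 0.229). Both rows were separated between the groups by more than the range within either group. Rps23, a decoding-centre protein in which the groups overlapped, had 5.34, 5.61 and 4.82 in the CL arrays, against 5.19, 4.38 and 4.82 in the vehicle arrays (0.46, SE 0.26).

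**Figure D2:**
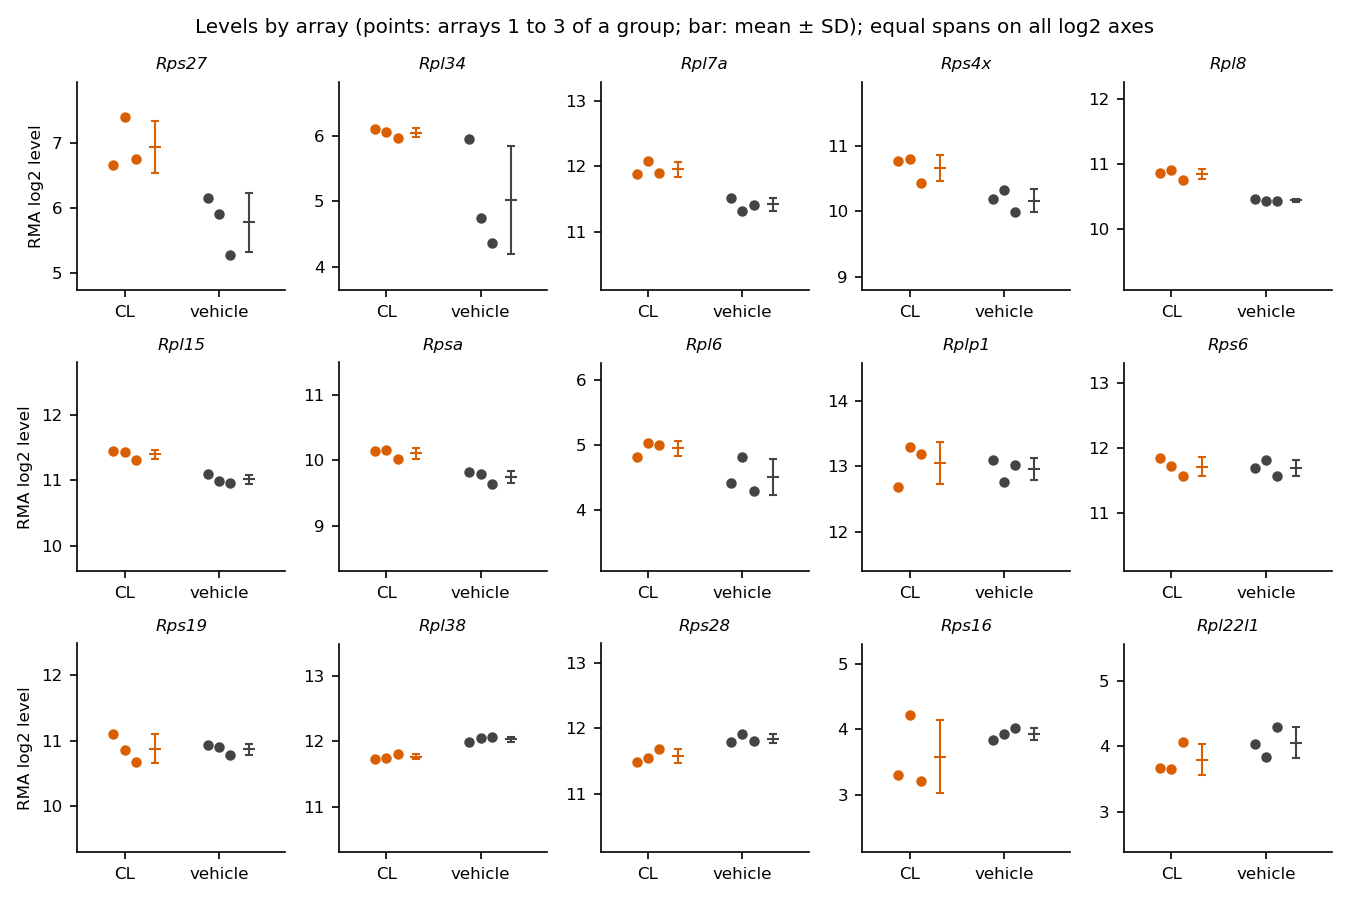
RMA log2 level (y axis, the same span in each panel) of 15 members in each CL array and each vehicle array, with the mean ± SD of each group (n = 3 each) beside the points. Rpl7a, Rpl8 and Rpl15 are higher in every CL array, Rpl38 and Rps28 are lower in every CL array, Rps6 and Rps19 overlap, and in Rpl34 vehicle array 1 stands near the CL arrays.

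The lower members that were bright had small and tight differences. Rpl38, a large-subunit protein known in mouse embryos for its role in the translation of Hox messenger RNAs, had 11.74, 11.75 and 11.81 in the CL arrays, against 11.99, 12.05 and 12.06 in the vehicle arrays. Rps28, of the small subunit, had 11.48, 11.55 and 11.69 in the CL arrays, against 11.79, 11.92 and 11.81 in the vehicle arrays. Every CL value lay below every vehicle value in both genes. The log2 fold changes were -0.27 (SE 0.13, adjusted p = 0.384) for Rpl38 and -0.27 (SE 0.14, adjusted p = 0.41) for Rps28. Both were among the 3 genes lower by the methods' t-test at an unadjusted threshold, with Rpl4.

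The other low values came mostly from dim rows. Rps16, of the small subunit, had 3.30, 4.22 and 3.21 in the CL arrays, against 3.84, 3.93 and 4.02 in the vehicle arrays (-0.35, SE 0.25), and without CL array 2 the difference was -0.67. Rps29, a zinc-binding small-subunit protein, had 4.46, 4.61 and 4.63 in the CL arrays, against 4.89, 4.61 and 4.83 in the vehicle arrays (-0.21, SE 0.14). Rps3a1, of the small subunit, had 10.29, 10.28 and 10.66 in the CL arrays, against 10.57, 10.63 and 10.60 in the vehicle arrays (-0.19, SE 0.15). The groups overlapped in all 3 genes. A mean below background was found for 7 members (39.7% of all genes), which included Rps15, Rplp2 and Rpl32l at the low end (-0.74, -0.35 and -0.32) and Rpl27a at the high end (0.33). Rps15 had 2.52, 3.86 and 2.21 in the CL arrays, against 3.32, 3.60 and 3.89 in the vehicle arrays, and without CL array 2 its difference was -1.24 (limma, adjusted p = 0.136).

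The stalk of the large subunit, which recruits the translation factors, is formed by Rplp0 with Rplp1 and Rplp2. Rplp0 had 8.97, 8.79 and 8.29 in the CL arrays, against 8.31, 8.29 and 7.91 in the vehicle arrays (0.52, SE 0.21, adjusted p = 0.293). Rplp1 had 12.69, 13.29 and 13.19 in the CL arrays, against 13.09, 12.77 and 13.02 in the vehicle arrays (0.10, SE 0.19). The groups overlapped in both, by 1 CL array in Rplp0 and throughout in Rplp1. Rplp0 is often used to normalise quantitative PCR, where it is called 36B4, and its interval ran from 0.05 to 0.99.

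Rps6, the substrate of the S6 kinases, had 11.85, 11.72 and 11.57 in the CL arrays, against 11.70, 11.82 and 11.57 in the vehicle arrays. Its log2 fold change was 0.02 (95% interval -0.31 to 0.35). Rps19, the gene most often mutated in Diamond-Blackfan anaemia in humans, had 11.11, 10.86 and 10.67 in the CL arrays, against 10.93, 10.90 and 10.78 in the vehicle arrays (0.01, interval -0.35 to 0.36). The groups lay on top of each other in both genes. Rps3, at the messenger RNA entry site of the small subunit, had 10.55, 10.58 and 10.36 in the CL arrays, against 10.24, 10.40 and 10.41 in the vehicle arrays (0.14, interval -0.17 to 0.46), with 1 CL array among the vehicle values.

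Rpl5 and Rpl11 bind the smallest ribosomal RNA and, when free, Mdm2, the ubiquitin ligase of p53. Rpl5 had 3.77, 4.30 and 4.05 in the CL arrays, against 4.50, 3.71 and 4.21 in the vehicle arrays (-0.10, interval -0.61 to 0.41). Rpl11 had 3.86, 3.93 and 3.78 in the CL arrays, against 4.70, 3.86 and 3.34 in the vehicle arrays (-0.11, interval -0.78 to 0.56). Both rows were dim, and their wide intervals include changes of either sign. A row shared by Rpl5 and a pseudogene symbol had means of 4.67 in the CL arrays and 5.81 in the vehicle arrays (-1.14). Among the 34 bright canonical members, 19 had an interval that lay wholly between -0.5 and 0.5.

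Of the 2 genes that encode no ribosomal protein, Rps19bp1, whose product binds Rps19 and the deacetylase Sirt1, had 7.13, 7.32 and 6.93 in the CL arrays, against 6.71, 6.26 and 6.29 in the vehicle arrays. The groups did not overlap (0.70, SE 0.18, adjusted p = 0.131), so that 1 of the 11 members higher at unadjusted p was not a ribosomal protein gene. Rps23rg1, a mouse retrogene of Rps23, was below background (0.13, SE 0.14).

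Which row stood for a gene mattered for several members. The 69 members had 110 rows with 1 symbol, and 25 members had more than 1. Probe set numbers follow the order of the genome, since 99.59% of 2956 other rows with a settled position lay among rows of their gene's chromosome. The brightest row, the one used, lay among rows of the gene's own chromosome in 48 members, among those of another chromosome in 17 and at an unsettled position in 4. The 17 had a median level of 11.2 and the 48 a median level of 5.91, and 13 of the 17 also had a row on their own chromosome. Whether a row away from the gene reads the gene's messenger RNA, that of a copy, or both was not tested. Rpl7a, Rpl15, Rpsa, Rplp0, Rps28, Rps3a1, Rps6 and Rps19, described above, were all read from such rows, and the bright shared rows of Rps27 and Rpl34 were not used because they carry several symbols, while the row used for Rpl4 had no settled position.

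The rows of 12 genes differed in the sign of their fold change. The row of Rpl7a used above lay among chromosome 9 rows and the second, among chromosome 7 rows, gave 0.50, whereas the row on its own chromosome 2 had 5.12, 4.94 and 4.90 in the CL arrays, against 4.98, 5.23 and 4.74 in the vehicle arrays (-0.00). That row was dim, and its groups overlapped. For Rplp0, the row on its own chromosome 5 had 5.56, 6.22 and 6.68 in the CL arrays, against 6.57, 6.38 and 6.52 in the vehicle arrays (-0.34), the opposite sign to the row among chromosome 8 rows.

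Rpl4, which lines the exit tunnel, had bright rows that opposed each other. The row used had 11.64, 11.56 and 11.62 in the CL arrays, against 11.75, 11.90 and 11.80 in the vehicle arrays (-0.21, SE 0.13). The row on its own chromosome 9 had 11.64, 11.75 and 11.56 in the CL arrays, against 11.32, 11.29 and 11.30 in the vehicle arrays (0.35). The groups did not overlap in either row, and they lay in opposite order.

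Rpl3, which also lies near the peptidyl transferase centre, had 7.70, 7.99 and 7.75 in the CL arrays, against 8.38, 7.05 and 8.32 in the vehicle arrays (-0.10, SE 0.32). A further row of Rpl3, among X chromosome rows, had 7.44, 7.54 and 6.74 in the CL arrays, against 5.09, 6.36 and 6.21 in the vehicle arrays (1.35). The groups overlapped in the first row and did not overlap in the second. By contrast, the dimmer row of Rpsa on chromosome 9 gave 0.18, and that of Rps28 on chromosome 17 gave -0.76, each with the sign of the row used. With rows on the gene's own chromosome only, a choice made after the data were seen, 65 members had a row, 9 were higher and 1 lower at unadjusted p, and the median was 0.08.

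**Figure D3:**
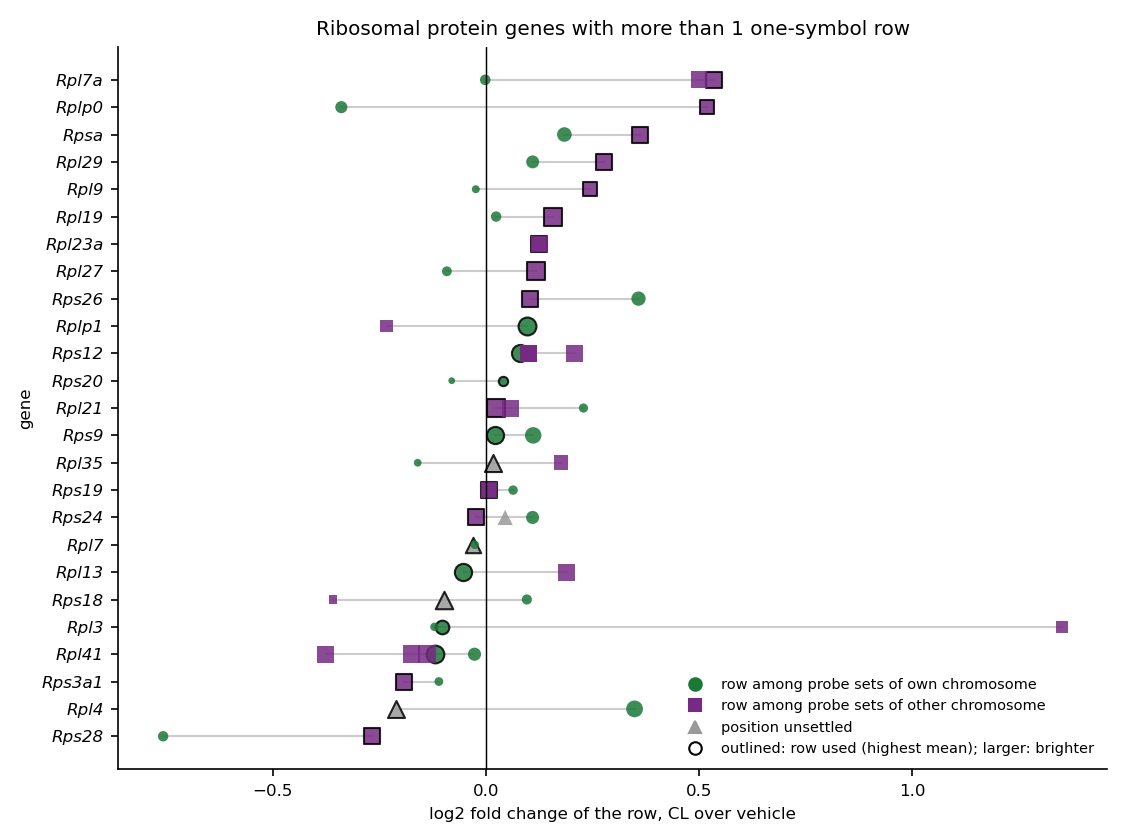
Log2 fold change (x axis, CL over vehicle) of every one-symbol row of the 25 members that have more than 1 (y axis, genes ordered by the row used). Circles lie among rows of the gene's own chromosome, squares among rows of another, triangles are unsettled, outlined symbols mark the row used and larger symbols are brighter; the rows of Rpl7a, Rplp0 and Rpl4 fall on both sides of 0 or at it, and the square of Rpl3 lies at 1.35.

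The paralogues replace a canonical protein in some tissues or have related roles. Their median log2 fold change was -0.12 over 9 genes, and 0 were higher or lower at unadjusted p. For 6 pairs the difference between paralogue and canonical gene was compared within each array. Rps27l, a p53 target, had 7.09, 7.31 and 7.07 in the CL arrays, against 7.15, 7.05 and 6.92 in the vehicle arrays. Its difference to Rps27 was lower by 1.03 in the CL arrays than in the vehicle arrays. Most of this came from the Rps27 row (1.15), and the brighter row shared with Rps27rt had the opposite sign (-0.28). The difference of Rps4l to Rps4x was lower by 0.65, and that of Rpl22l1 to Rpl22 by 0.46, or by 0.29 without CL array 2. In these 3 pairs no CL value overlapped a vehicle value, and the exact permutation p was 0.10 for each, the smallest that 3 arrays against 3 allow (two-sided, 0.2 after adjustment over the 6 pairs).

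Rps4l itself had 6.39, 6.58 and 6.00 in the CL arrays, against 6.52, 6.27 and 6.63 in the vehicle arrays (-0.15). Rpl22l1 had 3.67, 3.65 and 4.07 in the CL arrays, against 4.03, 3.84 and 4.30 in the vehicle arrays (-0.26), while Rpl22 had 6.43, 6.91 and 6.78 in the CL arrays, against 6.71, 6.26 and 6.53 in the vehicle arrays (0.20). Each of these genes overlapped between the groups when taken alone. The other 3 pairs, the striated muscle paralogue Rpl3l with Rpl3, the testis paralogue Rpl39l with Rpl39, and Rpl7l1 with Rpl7, differed by 0.18, -0.16 and -0.09 (exact permutation p = 0.8, 0.5 and 0.5). Of their single genes, Rpl39l was -0.24, Rpl7l1 -0.12, Rpl39 -0.09, Rpl7 -0.03 and Rpl3l 0.08, and the testis gene Rpl10l, below background, was -0.00.

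Mitochondrial ribosomal proteins, which are encoded in the nucleus and translate the few messages of the mitochondrial genome, had larger fold changes on the same arrays. Of 71 genes, 26 were higher (36.6%, against 9.4% of all genes) and 1 lower at unadjusted p, and 0 passed the test. The fold change was positive in 60, with a median of 0.28. With only genes above background tested, 24 of the list were higher, against 13.6% of all genes so filtered. Quantile normalization gave 19 higher and a median of 0.20, and cyclic loess 20 higher and a median of 0.21. Without CL array 2, 17 were higher. Mrps18a had 7.49, 7.61 and 7.74 in the CL arrays, against 6.83, 6.73 and 6.69 in the vehicle arrays (0.86, SE 0.14, adjusted p = 0.0502), and it passed in 4 of 18 alternatives. Mrpl2 had 7.38, 7.34 and 7.06 in the CL arrays, against 6.43, 6.53 and 6.47 in the vehicle arrays (0.78, SE 0.15, adjusted p = 0.0707). Neither gene overlapped between the groups. The median deviation of the list was 0.11, 0.20 and 0.08 in the CL arrays, against 0.00, -0.24 and -0.16 in the vehicle arrays. These values did not overlap, while those of the 69 cytosolic members did. The overlap did not hold in every part of the cytosolic list. The 34 canonical members above 9 were just apart (lowest CL array 0.0093, highest vehicle array 0.0086), and those at 9 or less overlapped. The 17 read among rows of another chromosome were apart (lowest CL array 0.06, highest vehicle array -0.01). Canonical members read on their own chromosome overlapped. The difference between the mitochondrial and the cytosolic list was not tested.

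**Figure D4:**
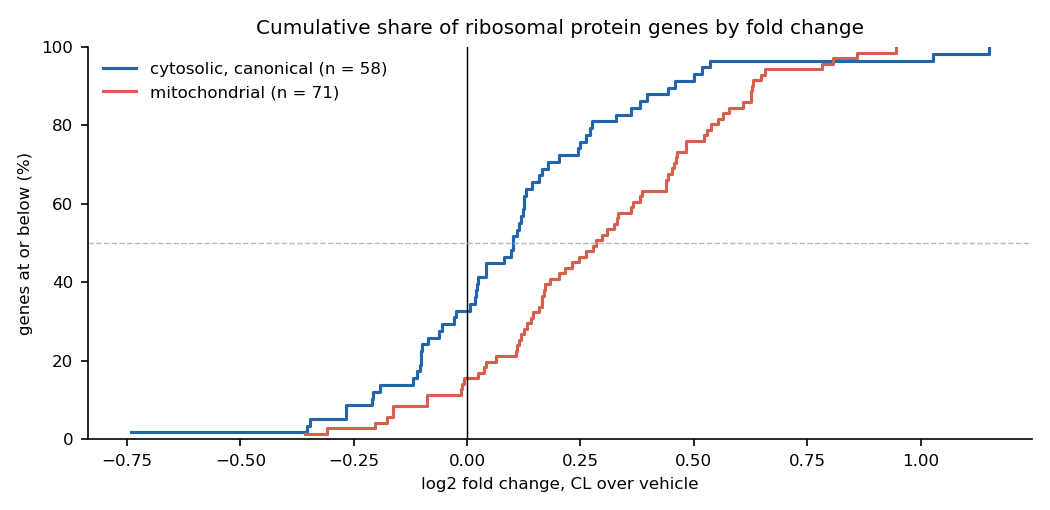
Cumulative share of genes (y axis, %) at or below each log2 fold change (x axis, CL over vehicle) for the 58 canonical cytosolic and the 71 mitochondrial ribosomal protein genes. The cytosolic curve crosses the dashed 50% line at 0.10 and the mitochondrial curve at 0.28.

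The other lists of the translation machinery, drawn up with earlier results of these arrays known, had medians between those values or below them. The counts of all these lists stand beside 9.4% higher and 5.38% lower at unadjusted p over all genes. With only genes above background tested, the shares were 13.6% and 5.82%. Of 20 other genes with TOP messages, 5 were higher (25%) and 0 lower at unadjusted p, with a median of 0.21. Among them Eif3f, a subunit of the initiation factor that binds the small subunit, had 10.27, 10.20 and 10.14 in the CL arrays, against 9.24, 9.56 and 9.67 in the vehicle arrays (0.71, SE 0.16, adjusted p = 0.0943). Vim, the intermediate filament vimentin, had 11.59, 11.67 and 11.60 in the CL arrays, against 11.14, 10.82 and 11.19 in the vehicle arrays (0.57, SE 0.15). The groups overlapped in neither. Fau, which encodes a ubiquitin-like protein fused to a small-subunit protein, was 0.05 (SE 0.13), with overlap, and Rack1 was not analysed here.

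Of 36 initiation factor genes, 8 were higher and 2 lower at unadjusted p, with a median of 0.17. Eif4a2, an RNA helicase of the cap-binding complex, had 9.38, 9.86 and 10.24 in the CL arrays, against 10.53, 10.71 and 10.84 in the vehicle arrays (-0.87, SE 0.22, adjusted p = 0.131). Its groups did not overlap, and they lay in the opposite order to those of Eif3f. Of 16 elongation and termination factor genes, 2 were higher and 1 lower, with a median of 0.08. Eef1d, an exchange factor of elongation, was 0.66 (SE 0.18) and Eef2k, the kinase that inhibits elongation factor Eef2, was 0.53 (SE 0.17).

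Of 89 genes of RNA polymerase I and ribosome biogenesis, 13 were higher and 1 lower at unadjusted p, with a median of 0.12. The lower one, Taf1d, a subunit of the polymerase I selectivity factor, was the only gene of the translation lists that passed the test. It had 7.59, 7.55 and 7.79 in the CL arrays, against 8.62, 9.04 and 8.94 in the vehicle arrays, without overlap, and fell by 1.22 on the log2 scale (SE 0.16, adjusted p = 0.0303). With the mean of all its rows the change was -0.54 and did not pass, and it kept its call in 10 of 18 alternatives. The call was lost without any 1 of the CL arrays and without vehicle array 2 or 3 (log2 fold changes of -1.14 to -1.30). Without any 1 of the CL arrays, and with the methods' t-test, 0 of all 22180 genes passed. The loss of the call in those settings is therefore not particular to Taf1d. Of 19 chaperones of ribosomal proteins, 4 were higher and 0 lower, with a median of 0.17, led by Bccip at 0.59 (SE 0.15) and Aamp at 0.97 (SE 0.27).

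Of 37 regulators of ribosomal protein synthesis, 6 were higher and 1 lower at unadjusted p, with a median of 0.16. Mxi1, a Max partner that opposes Myc, had 9.40, 9.67 and 9.71 in the CL arrays, against 9.16, 8.67 and 7.95 in the vehicle arrays (1.00, SE 0.28, adjusted p = 0.156). Eif4ebp1, the cap-binding repressor that mTORC1 phosphorylates, had 7.68, 7.71 and 8.13 in the CL arrays, against 7.37, 7.35 and 6.91 in the vehicle arrays (0.63, SE 0.19, adjusted p = 0.178). Neither overlapped between the groups. Larp1, which binds TOP tracts, was 0.32 (SE 0.14), Mtor 0.20 (SE 0.15) and Myc 0.06 (SE 0.17), and Rps6kb1 was not analysed here. Of 12 genes used as references in quantitative PCR, 2 were higher and 0 lower, with a median of 0.04, and these were Ppib at 0.47 (SE 0.16) and Sdha at 0.48 (SE 0.19).

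**Figure D5:**
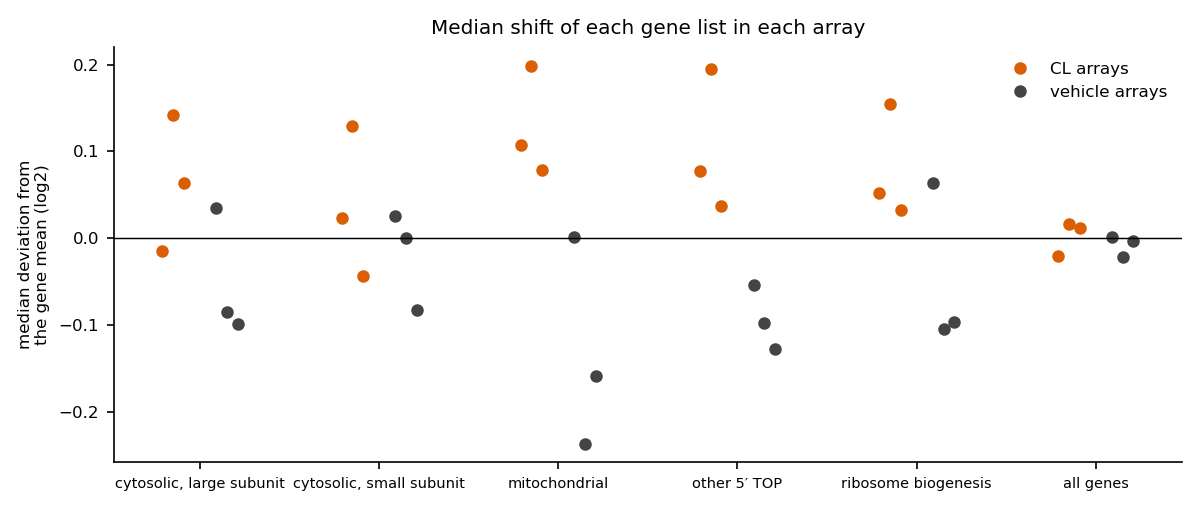
Median over each gene list (x axis) of the deviation of its genes from their own mean over the 6 arrays (y axis, log2), with 1 point for each CL array and each vehicle array. The CL and vehicle points overlap for both cytosolic subunits, for ribosome biogenesis and for all genes, and are apart for the mitochondrial list and the other TOP genes.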

How the data were processed

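Gene expression of the SVF of gWAT was measured on 6 whole-transcript arrays (Affymetrix Mouse Gene 2.0 ST), 3 of the CL and 3 of the vehicle group, as the labels assign them. The deposited values are on the log2 scale, and the authors obtained them by RMA in Affymetrix Expression Console (versions not given in the sources used here). RMA corrects background, quantile-normalizes and summarises probes, which would take out most of a shift shared by most genes. The array medians over all probe sets still lay apart, at 3.74, 3.77 and 3.80 in the CL arrays against 3.84, 3.90 and 3.89 in the vehicle arrays. Over the genes tested the medians overlapped, at 4.27, 4.37 and 4.31 in the CL arrays against 4.29, 4.32 and 4.29 in the vehicle arrays. Depth does not apply to arrays, and their number limits the precision. No batch was given in the sources used here.

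Of 41345 probe sets, the 23521 with 1 symbol were used, the brightest for each gene. Genes were compared with limma 3.58.1 in R 4.3.3 (lmFit and eBayes with a constant prior variance, two-sided p), adjusted by Benjamini-Hochberg over all 22180 genes, and paralogue pairs with exact permutation tests. Background was the 95th percentile of the means of 1394 receptor genes. Members matched the GRCm38.p6 gene table (69 of 69). The fit was checked on simulated data.

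Members, gene lists and tests were chosen with earlier results of these data known. Genes named were members past the threshold, the 8 highest and 8 lowest above background, paralogue pairs, members with a special role, symbols that encode no ribosomal protein, and up to 3 genes of each list. Rpl8, Rpl15, Rpl27a, Rps15 and Rpl32l were added once their values were known. The alternatives were the methods' t-test, a prior variance that follows the level (plain or robust), a filter at background or at the median gene, arrays rescaled by median centring, quantile normalization or cyclic loess, array weights, averaged rows per gene, single rows, canonical members only, a block for the replicate number, leaving out each array, and rows on the gene's own chromosome, the last chosen after seeing the data.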

Additional observations from a re-analysis of the deposited data

How the results depend on the processing

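The 11 members higher and 0 lower at unadjusted p had counts of 8 to 11 higher under every alternative that kept all arrays. The count lower was 3 with the methods' t-test, 4 with eBayes with trend and 4 with robust estimation, 1 with median centring, 2 with cyclic loess, 1 with averaged rows per gene and 1 with rows on the gene's own chromosome. Members past the adjusted threshold were 1 with eBayes with trend and 1 with robust estimation, Rpl7a in both. Leaving out 1 array gave 5 to 12 higher (5 without CL array 2, 6 without vehicle array 3, 7 without CL array 1) and 0 to 4 lower (4 without CL array 2). It gave 0 to 1 called (Rpl34, without vehicle array 1) and a median of 0.05 to 0.11. Without any 1 of the CL arrays, and with the methods' t-test, 0 genes of the whole series passed. The lack of calls among members in those settings is thus not particular to them. The member median was 0.03 to 0.11 over all alternatives, and 0.10 with canonical members only. A filter at background or at the median gene moved the median of all genes to 0.07 and 0.09, with member medians of 0.10 and 0.11. Every one-symbol probe set tested by itself gave 0 calls among 110. Replicate numbers did not pair the arrays (correlations of deviations -0.00, 0.10 and 0.06), and with the replicate block 10 members were higher and 0 lower, while calls over all genes were 9 higher and 6 lower, against 44 and 28 without it.

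Over 52 named genes and 922 gene and setting pairs, 864 kept direction and call, and 40 changed sign. With cyclic loess, Fau was -0.00484, Myc -0.0556, Rpl10l 0.0487, Rps19 -0.0616, Rps27l -0.000994 and Rps6 -0.0339. With quantile normalization, Myc was -0.0394, Rpl10l 0.0166 and Rps19 -0.032. With median centring Rps19 was -0.00868, and with array weights Rpl10l was 0.00731. With averaged rows per gene, Fau was -0.133, Rpl3 0.376, Rpl4 0.0691 and Rplp1 -0.0679. On rows of the gene's own chromosome, Rpl4 was 0.349, Rpl7a -0.00151 and Rplp0 -0.339. Leaving out 1 array also changed the sign of Myc (-0.0300 to 0.1995), Rpl10l (-0.111 to 0.0697), Rpl11 (-0.422 to 0.254), Rpl3 (-0.535 to 0.129), Rpl39 (-0.285 to 0.0543), Rpl3l (-0.0856 to 0.189), Rpl5 (-0.317 to 0.0768), Rpl7 (-0.121 to 0.0691), Rplp1 (-0.0188 to 0.281), Rps19 (-0.108 to 0.11), Rps4l (-0.28 to 0.0129) and Rps6 (-0.0504 to 0.0917), and of the pairs Rpl3l with Rpl3 (-0.0844 to 0.688) and Rpl39l with Rpl39 (-0.292 to 0.0019). The cause was not tested.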

Other observations

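A further 57 rows carried several symbols with a ribosomal protein among them, which cannot be assigned to 1 gene. These rows and those below were tested in a separate fit over all 41345 probe sets. Of the 57, 1 was higher and 6 were lower at unadjusted p, and 0 passed the test. Their median log2 fold change was -0.02. The shares of all probe sets higher or lower in the separate fit are not given here. In the main fit over genes, whose p-values differ, 9.4% were higher and 5.38% lower. The counts of these rows and of those below therefore have no like share beside them. The largest falls were in rows that also carry a small nucleolar RNA symbol (-1.91 for Rpl13a with Snord32a, -1.31 for Rplp2 with Snora52, -1.15 for Rps3 with Snord15b). Rows without such a symbol fell nearly as far (-1.14 for Rpl5 with a pseudogene symbol, -0.99 for Rpl30 with 2 predicted genes). The other rows with such a symbol ran from -0.44 (Rps13 with Snord14a) to 0.13 (Rpl10 with Snora70). Which transcript these rows read was not tested. Of the 41 one-symbol rows of members that were not used, 4 were higher and 2 lower, 0 passed the test, and the median was 0.06. Of the 110 one-symbol rows, 7 repeated the values of another row of the same gene, in 3 genes (Rps12, Rps19 and Rpl23a).

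Vehicle array 1 stood apart in several dim large-subunit rows, named after their values were seen. Rpl26 had 5.36, 5.42 and 5.002 in the CL arrays, against 5.92, 4.61 and 4.76 in the vehicle arrays, and Rpl17 had 4.90, 5.13 and 4.62 in the CL arrays, against 5.65, 4.04 and 4.57 in the vehicle arrays. With all arrays the log2 fold change was 0.16 for Rpl26 and 0.13 for Rpl17 (limma, adjusted p = 0.864 and 0.908), and the groups overlapped. Without vehicle array 1 both were higher by 0.58 (limma, adjusted p = 0.197 for Rpl26 and 0.269 for Rpl17). Vehicle array 2 held the lowest value of both genes, so the size of the change hung on which array was left out.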
